A study of Mus musculus with 6 samples.

Results

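The 44 miRNA entries described here belong to the imprinted Dlk1-Dio3 locus on mouse chromosome 12. They were chosen by name from a list of miRNAs of the maternally expressed cluster of Meg3, Rian and Mirg, and all 44 were present among the 1006 precursor entries of the deposited table. Each entry is a miRBase precursor, so the reads of its 5p and 3p arms were counted together.

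Imprinted genes are expressed from the chromosome of only one parent. In the Dlk1-Dio3 locus, the paternal chromosome expresses the protein-coding genes Dlk1, Rtl1 and Dio3, and the maternal chromosome expresses the non-coding RNAs Meg3, Rian and Mirg together with a transcript antisense to Rtl1. The miRNAs are cut from these maternal transcripts, and they are known to be abundant in the embryo, the placenta, the brain and many mesenchymal and progenitor cells and scarce in most other adult tissues.

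Small RNA was sequenced from 1 library of mouse primary osteoblasts (OB), 1 library of mouse bone marrow cells (BM), 2 libraries of Myo-EVs and 2 libraries of FFSS-Myo-EVs. C2C12, an established line of mouse myoblasts, released the vesicles into its medium, from which they were collected by ultracentrifugation, and for FFSS-Myo-EVs the cells were exposed to fluid flow shear stress on an orbital shaker. Culture lasted 48 hr in both vesicle groups, and 90 ng of total RNA entered each library. The labels give all 6 libraries a mixed background with a C57BL/6J part of 81.25% and a 129/SvJ part of 18.75%. The study's methods state this background for its mice and obtained C2C12 from ATCC, so it may not apply to the vesicle libraries. The labels give OB and BM an age of 8 to 10 weeks. The study's methods, however, describe osteoblasts of the calvariae of neonatal male mice, pooled from several animals. They describe bone marrow from the tibiae of an adult male. The vesicle groups hold RNA of vesicles released by C2C12 myoblasts, and not of muscle tissue. None of the 6 libraries held RNA of the C2C12 cells themselves, so comparisons of OB or BM with the vesicle groups set cells against vesicles. The labels name no genotype, and the only condition that they assign to samples is shear stress. Their culture protocol, which is the same text for all 6 libraries, describes C2C12 cells with or without a vitamin D metabolite or dexamethasone and does not mention shear stress, and no label assigns either agent to a library. OB and BM have 1 library each, so comparisons with them have no replicate check and no test, and no label states that the paired vesicle libraries came from separate cultures, so that their spread may be technical.

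The libraries held between 2414132 and 6092460 counts. The mesenchymal markers mir-143, mir-145a, mir-100, mir-199a, mir-199b and mir-214 (7 entries) summed to 593288 normalized in OB, 23797 in BM and between 339738 and 442810 in the vesicles. A set of 4 blood cell entries (mir-144, mir-150, mir-223 and mir-451a) summed to 11281 in BM, 126.5 in OB and between 9.6 and 43.9 in the vesicles. The blood cell list also named mir-142 and mir-486, whose entries mir-142a, mir-142b, mir-486a and mir-486b were not in these sums. They had 49.2, 22.6, 64.1 and 79.5 in OB, and their highest values outside OB were 9066.5, 5825.1, 421.4 and 440.5. Of the 8 muscle entries, mir-206 ranged from 1968.5 to 2610 in the vesicles against 91.7 in OB and 7.9 in BM. For mir-1a, a miRNA of differentiated muscle, the entry mir-1a-1 was at 0 in all 4 vesicle libraries. The entry mir-1a-2 had 3.0 and 6.0 in the Myo-EV pair and 2.0 and 0 in the FFSS-Myo-EV pair.

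The mature sequences of the 5 members with the most reads in OB are shown because these 5 entries carried most of the signal of the locus. RefSeq (build GRCm38.p6) gave mature sequences for all 44 members, 85 mature forms in total. For mir-376c and mir-487b it gave only the 5p form, and for mir-485 only the 3p form. The sequences are written 5′ to 3′, with the seed (bases 2 to 8), which pairs with target mRNAs, in capitals.
miR-127-5p: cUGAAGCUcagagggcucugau
miR-127-3p: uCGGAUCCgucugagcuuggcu
miR-379-5p: uGGUAGACuauggaacguagg
miR-379-3p: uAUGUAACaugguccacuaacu
miR-541-5p: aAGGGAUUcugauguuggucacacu
miR-541-3p: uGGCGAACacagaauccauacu
miR-434-5p: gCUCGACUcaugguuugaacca
miR-434-3p: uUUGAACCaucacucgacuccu
miR-411-5p: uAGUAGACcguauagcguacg
miR-411-3p: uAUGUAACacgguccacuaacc

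The 85 mature forms carried 79 distinct seeds. A total of 68 seeds occurred in no RefSeq mouse miRNA other than the members, and 11 were shared with miRNAs outside the list. Only 6 seeds were carried by more than 1 member form, and these covered 12 forms. The pairs were miR-379-3p with miR-411-3p, miR-379-5p with miR-1193-5p, miR-370-5p with miR-1193-3p, miR-1197-5p with miR-758-5p, miR-494-5p with miR-410-5p, and miR-376b-5p with miR-376c-5p.

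The closest member sequences are shown because reads of such pairs can be assigned to either precursor. How the authors assigned reads that match several precursors is not given in the sources used here. The seed is again in capitals.
miR-376b-5p: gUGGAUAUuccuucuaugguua
miR-376c-5p: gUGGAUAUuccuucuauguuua
miR-300-3p: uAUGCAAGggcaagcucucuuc
miR-381-3p: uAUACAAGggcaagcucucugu
The first pair was at an edit distance of 1, miR-379-3p and miR-411-3p at 2, and miR-300-3p and miR-381-3p at 3. Only 4 of the 85 forms lay within an edit distance of 2 of another RefSeq mouse miRNA. The OB levels of mir-376b and mir-376c, which were 556.1 and 545.1 normalized with overlapping counting intervals, are uncertain for this reason. Their 3p forms were not compared, since none was given for mir-376c.

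The members also shared longer stretches. In a count of every run of 8 bases over all mature forms, made after the list was known, GGUUGACC occurred in 5 member forms, the highest number, and in 0 of the 1594 mature forms with distinct names outside the members. The run is in capitals below, on the strand of the miRNA.
miR-1197-5p: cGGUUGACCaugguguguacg
miR-758-5p: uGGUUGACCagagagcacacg
miR-380-5p: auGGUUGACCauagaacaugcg
miR-134-5p: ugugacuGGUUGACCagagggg
miR-154-3p: aaucauacacGGUUGACCuauu
GGUCCACU occurred in 4 member forms (miR-379-3p, miR-411-3p, miR-412-3p and miR-758-3p) and in 0 of the same 1594 forms. The sequences of miR-379-3p and miR-411-3p printed above carry it from base 11. The entries with a shared run differed widely in level, from 40.9 normalized in OB for mir-1197 to 6686.1 for mir-134 among those with the first run, and from 99.4 for mir-758 to 36033.8 for mir-379 among those with the second.

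All 44 members lay on the plus strand of chromosome 12 over 184.3 kb, from mir-770 (chr12:109563692-109563785, GRCm38) to mir-3072 (chr12:109747878-109747960). The members formed groups on either side of a gap of 90.7 kb. The first group of 12 members, from mir-770 to mir-370, spanned 54.6 kb. In GENCODE M21, mir-770 lay in an exon of Meg3, mir-370 lay in an intron of Rian, and mir-431, mir-433, mir-127, mir-434 and mir-136 lay opposite the exon of Rtl1, the retrotransposon-derived gene that is read from the other strand. The second group of 31 members, from mir-379 (chr12:109709060-109709125) to mir-410 (chr12:109743715-109743795), spanned 34.7 kb. Its members from mir-382 onward lay in exons or introns of Mirg, the annotation placed the members before mir-382 in no host gene, and mir-3072 lay beyond mir-410 in an exon of Mirg.

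The promoter of Meg3 is shown because the maternal transcripts that hold the miRNAs begin with Meg3. The window runs from 250 bases before to 50 bases after the RefSeq start (chr12:109540746-109541045, plus strand, GRCm38.p6), and the capitals mark TGACGTCA, the cyclic AMP response element, and the overlapping matches of TATAAA on both strands.
Meg3 promoter: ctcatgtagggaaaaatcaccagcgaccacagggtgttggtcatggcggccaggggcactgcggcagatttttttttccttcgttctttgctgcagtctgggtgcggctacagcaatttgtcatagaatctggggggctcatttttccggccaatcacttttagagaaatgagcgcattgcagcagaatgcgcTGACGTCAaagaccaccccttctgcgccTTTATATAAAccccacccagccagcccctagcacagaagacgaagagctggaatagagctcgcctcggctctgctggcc
Both strands were searched. TGACGTCA began at -57 from the start and was in 1.79% of the 32851 RefSeq promoter windows of this length. A match of TATAAA on either strand was in 13.6%. The stretch of overlapping TATAAA matches began at -29 with the minus-strand match, and the plus-strand match ended it. The window held 13 CpG, against a median of 7 over all promoters. Neither run was in the windows of the second Meg3 start or of Rian, and the data contain no measurement of binding or methylation at these sites.

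The members took 8.41% of all counts in OB (435900 counts, 95% Clopper-Pearson interval 8.39% to 8.44%). They took 0.00140% in BM (85 counts, interval 0.00111% to 0.00173%). The vesicle shares were 0.000522% (0.000292% to 0.000862%) and 0.000663% (0.000379% to 0.00108%) for Myo-EVs, with 15 and 16 counts. For FFSS-Myo-EVs the shares were 0.00132% (0.000943% to 0.00180%) and 0.00173% (0.00127% to 0.00231%), with 40 and 46 counts. The OB share was far outside the interval of every other library. These intervals cover counting error only, because reads amplified by PCR without molecular identifiers are not independent molecules. In the bulk OB and BM samples, fewer cells of a type and less RNA per cell cannot be told apart. The vesicle shares do not give the levels inside C2C12 cells, which were not sequenced.

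**Figure D1:**
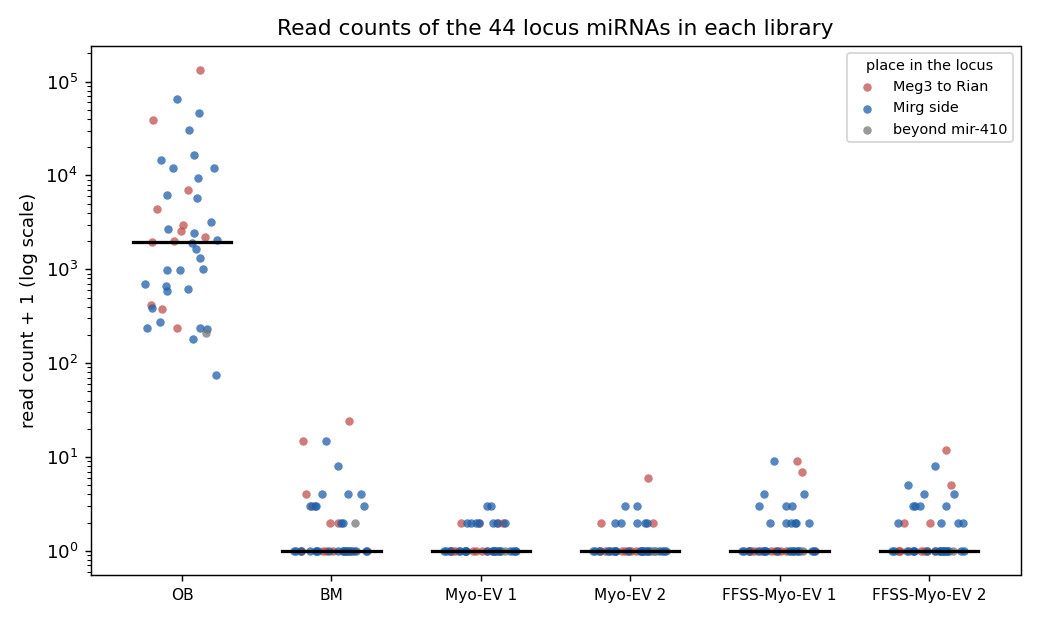
Read count + 1 (log scale) of each of the 44 locus miRNAs in the 6 libraries. Each point is an entry, coloured by its place in the locus, and the black line is the median over the 44. All OB points lie at 74 counts or more, while the highest point elsewhere is 23 counts in BM, and the medians of BM and the 4 EV libraries are at 0 counts.

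All 44 members were detected in OB, 18 in BM, and between 10 and 16 in each vesicle library. Of the members, 26 had 0 counts in BM, 19 had 0 counts in all 4 vesicle libraries and 15 had 0 counts in all of these. A count of 0 allows up to 3 counts, which is used below as the floor. The ranges of the normalized expression values did not overlap: the lowest member in OB (mir-1197, 40.9) was higher than the highest member value elsewhere (mir-127 in FFSS-Myo-EV replicate 2, 12.2).

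The OB levels covered a 1795-fold range of counts, with a median normalized expression value of 1086. A total of 5 members exceeded 10000, 24 exceeded 1000, 18 lay between 100 and 1000, and 2 (mir-758 and mir-1197) were below 100. The 5 highest members took 71.8% of all member counts in OB and the 10 highest took 86.6%. Of the 100 highest entries of the OB library, 16 were members. All levels are per library and not per copy of RNA, since ligation and amplification differ between small RNAs.

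mir-127, which is transcribed opposite Rtl1 and pairs perfectly with its mRNA, was the highest member in OB. Its normalized expression value was 73368.6 in OB (counting interval 72979.9 to 73759.3), 9.1 in BM, 1.0 and 6.0 for Myo-EVs, and 8.0 and 12.2 with shear stress. It was the 8th highest of all entries in OB and alone gave 30.5% of the member counts there. The OB value was 8031 times the BM value (interval 5352 to 12670) and 10970 times the vesicle mean (7431 to 16952).

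mir-379, the first member of the second group, had values of 36033.8 in OB, 5.6 in BM, 1.0 and 2.4 in the Myo-EV pair and 8.0 and 3.3 in the FFSS-Myo-EV pair. mir-411, its neighbour with the shared 3p seed, had 16636.5 in OB, 2.8 in BM, 2.0 and 2.4 in the Myo-EV pair and 1.0 and 7.8 in the FFSS-Myo-EV pair. Both were high in OB alone, and the ratio of OB to BM was 6480 for mir-379 (3862 to 11854) and 5984 for mir-411 (2904 to 14884), with overlapping intervals.

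mir-541, in an intron of Mirg, had 25396.3 in OB, 1.2 in BM, 1.0 and 1.2 in the Myo-EV pair and 1.0 and 2.2 in the FFSS-Myo-EV pair. mir-434, the neighbour of mir-127 in the Rtl1 antisense transcript, had 21330.1 in OB, 5.6 in BM, 0 and 1.2 in Myo-EVs and 0 in both FFSS-Myo-EV libraries. A single vesicle read of mir-434 stood against 38624 reads in OB and 14 in BM.

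The next 5 members had lower levels in OB and at most 8 reads each outside OB. mir-382 had 9111.6 in OB, 0 in BM, 0 in both Myo-EV libraries and 2.0 and 0 in FFSS-Myo-EVs. mir-409 had 7972.3 in OB, 0.8 in BM, 0 in both Myo-EV libraries and 2.0 and 4.4 in FFSS-Myo-EVs. These entries lie in an exon and an intron of Mirg, respectively. mir-134, best known as a brain miRNA of dendritic spines, had 6686.1 in OB, 0.8 in BM and 0 in all 4 vesicle libraries. mir-381 had 6667.9 in OB, 1.2 in BM, 1.0 and 1.2 in the Myo-EV pair and 1.0 and 2.2 in the FFSS-Myo-EV pair. The OB counting intervals of mir-134 and mir-381 overlapped, whereas the remaining members of the 10 highest were each separated from the next lower one. mir-300, whose 3p form is nearly that of mir-381, had 5221.0 in OB, 1.0 in FFSS-Myo-EV replicate 1 and 0 in the other libraries.

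Below the 10 highest, 14 members from mir-337 (3865.2) to mir-485 (1057.6) had OB values above 1000. They included mir-494 (3389.2), which is known to act on mitochondrial genes in muscle, and mir-433 (2439.3), which is known to target the osteoblast transcription factor Runx2. In BM these had 2 and 3 counts. From mir-410 (910.1) downwards, the counting intervals of most neighbours in the order overlapped, as for mir-377 (130.9), mir-665 (130.3), mir-376a (129.2), mir-412 (126.5) and mir-3072 (116.5).

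**Figure D2:**
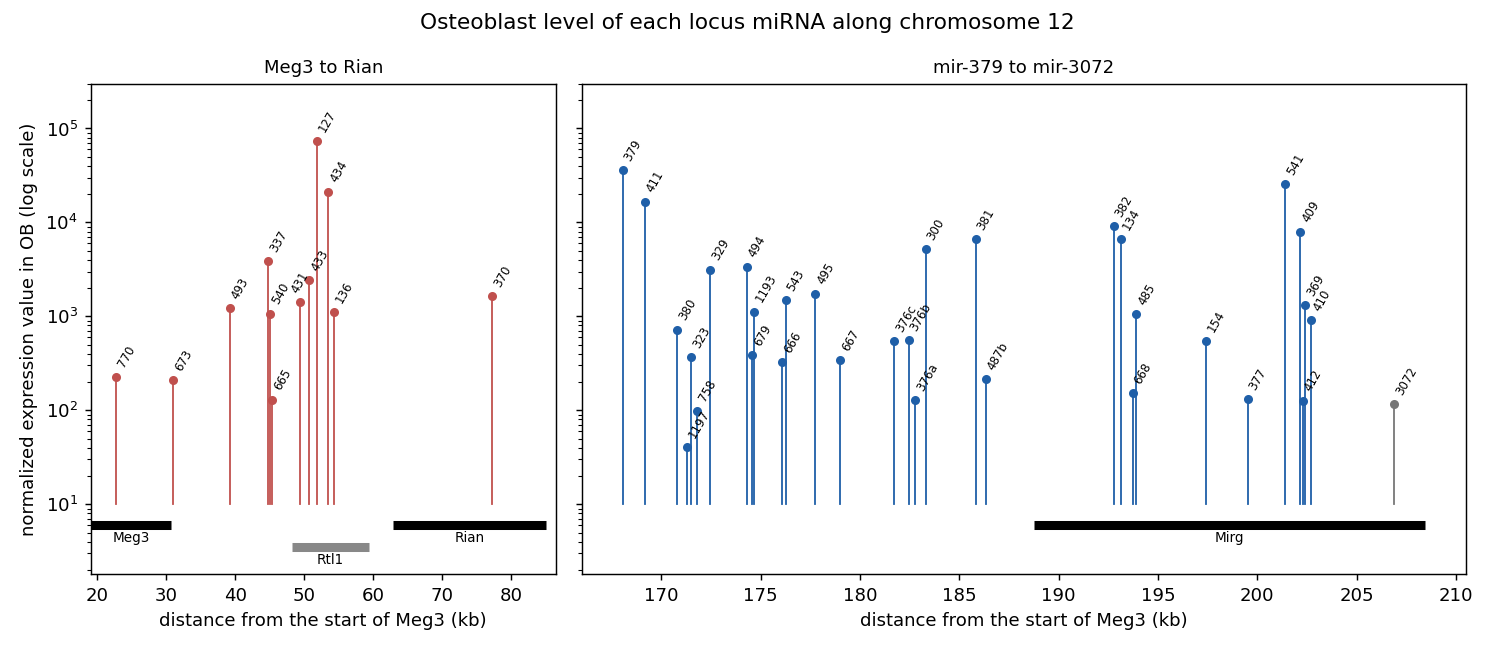
Normalized expression value in OB (log scale) against distance from the start of Meg3 (kb), with 1 stem for each member and numbers naming the miRNA. Bars at the bottom mark Meg3, Rtl1 (grey, opposite strand), Rian and Mirg, with Meg3 and Rian cut at the panel edge. The distance between the panels is left out. High and low members are interspersed within both groups.

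Neighbouring members differed widely in level. The 12 members from mir-770 to mir-370 held 44.9% of the member counts in OB, with values from 130.3 (mir-665) to 73368.6 (mir-127) and a median of 1314. The 5 members opposite Rtl1 held 41.4%, almost all of it in mir-127 and mir-434, while mir-433, mir-431 and mir-136 had 2439.3, 1406.0 and 1100.6. The 31 members from mir-379 to mir-410 held 55.1%, with a median of 910.1.

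Over the 43 adjacent pairs, the median absolute log2 ratio of OB counts was 2.19, against 2.54 over all 946 pairs. As an example, mir-412 (126.5) lies between mir-409 (7972.3) and mir-369 (1328.7) within Mirg. Spearman's rho of the OB count was -0.11 with the order in the locus (44 members) and -0.19 with the GC content of the hairpin (43 members with a RefSeq hairpin, from 29.1% to 72.3% GC). These correlations are over entries of 1 library and are given as a description.

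All 44 members were higher in OB than in BM by more than 2-fold, against 18.4% of all 1006 entries. Shares of entries past 2-fold, here and below, include the members and count entries at the floor in both groups as not called. Of the 443 entries with a mean of at least 10 over the 6 libraries, 32.7% were higher in OB by that fold, and 43 members passed this filter, all of them through their OB value, while mir-1197 did not pass. With BM set to 3 counts where it had 3 or fewer, the median ratio of OB to BM was 911.7 over the members and 0.834 over the 655 entries with a ratio. The lowest was at least 34.3-fold for mir-1197, which had 74 counts in OB and 0 in BM. The summed normalized values of the members were 240726 in OB and 33.9 in BM, a ratio of 7130 (interval 5766 to 8927).

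All 44 members were lower in Myo-EVs than in OB by more than 2-fold (21.6% of all entries and 37.5% of the 443 that passed the filter). All 44 were also lower in FFSS-Myo-EVs than in OB (18.7% of all entries and 31.6% of those that passed). These comparisons share the OB library, so that their counts are not independent. The summed value in OB was 14219 times that in Myo-EVs (interval 10018 to 20928) and 5337 times that in FFSS-Myo-EVs (4322 to 6673). For the 19 members with no vesicle read, the OB level was at least 123.9-fold (mir-758) to at least 8331-fold (mir-134) above the vesicle floor of 3 counts over the 4 libraries.

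**Figure D3:**
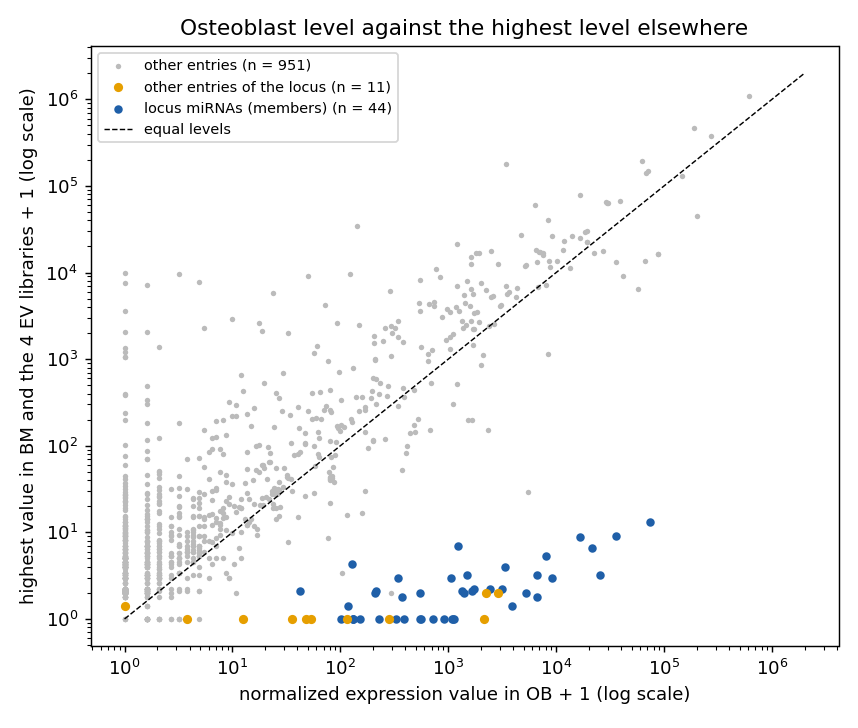
Highest normalized expression value + 1 among BM and the 4 EV libraries against the value + 1 in OB, both on log scales, for all 1006 entries. The 44 members and most of the 11 other entries of the locus lie along the bottom, at 12.2 or lower elsewhere, far below the dashed line of equal levels, around which the abundant other entries are scattered.

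Outside the member list, 11 entries were placed between Dlk1 and Dio3. mir-299a (5282 counts in OB, 1 in BM and 1 in Myo-EV replicate 1), mir-341 (4063 counts in OB and 1 in FFSS-Myo-EV replicate 1) and mir-3071 (3913 counts in OB and 0 elsewhere) were at the level of the upper members. Fewer counts were found in OB for mir-496a (506), mir-3544 (207), mir-1188 (94), mir-539 (85), mir-299b (63), mir-1247 (21) and mir-544 (5), all with 0 counts elsewhere, and mir-1906-1 had 0 in OB and 1 in BM. mir-3070-1 and mir-3070-2, which were not placed, had 5 and 4 counts in OB. mir-3071, mir-3544 and mir-299b lie on the minus strand opposite mir-136, mir-337 and mir-299a. Whether the counting used strand is not given in the sources used here, so the counts of these pairs are uncertain.

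Of the 1006 entries, 127 had an OB value of at least 1000, and 28 of these were at least 100 times as high in OB as in each of the other 5 libraries. They comprised 24 members, which were all the members at that level, the 3 locus entries mir-299a, mir-341 and mir-3071, and mir-335 on chromosome 6. mir-335, which lies in the imprinted gene Mest, had values of 5517.0 in OB, 28.2 in BM, 3.0 and 0 in the Myo-EV pair and 1.0 and 3.3 in the FFSS-Myo-EV pair. This limit of 100 was chosen after the values were seen.

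The pattern of the members was not seen in a pair of entries that lie before Dlk1 on the same chromosome. mir-342, in an intron of Evl and 804.7 kb before the end of Dlk1, had 545.6 in OB, 8270.1 in BM and between 56.8 and 67.3 in the vesicles. mir-345, in an exon of Slc25a47 and 626.4 kb before that end, had 288.3 in OB, 86.6 in BM, 5431.7 and 6118.9 in the Myo-EV pair and 2407.8 and 2572.8 in the FFSS-Myo-EV pair. Under shear stress mir-345 fell by 1.34 on the log2 scale (edgeR quasi-likelihood test, adjusted p = 2.60e-20, lower in 2 of 2 libraries). Both were singled out after their values were seen.

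In BM, the 10 members highest in OB had 68 of the 85 member counts, and 8 of these 10 were detected, against 10 of the other 34. mir-127 had 23 counts in BM, mir-379 and mir-434 had 14 each, and mir-411 had 7. No other member had more than 3. In the same library the mesenchymal entries were at 23797 normalized and the members at 33.9 in sum. Whether the BM reads came from stromal cells of the marrow was not tested.

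Between vesicles and BM, most members could not be compared. In Myo-EVs against BM, 40 of the 44 members were at or under the floor in both, 3 were lower in Myo-EVs by more than 2-fold (22.7% of all entries and 35.7% of those that passed the filter) and 0 were higher (25.6% and 35.4%). The 3 were mir-127, mir-379 and mir-434. Without Myo-EV replicate 1 there were 0, and without replicate 2 there was 1, so the count rests on single libraries.

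In FFSS-Myo-EVs against BM, 36 members were at or under the floor in both, 4 were higher in FFSS-Myo-EVs by more than 2-fold (28.0% of all entries and 36.8% of those that passed the filter) and 1 was lower (21.7% and 30.7%). The higher ones were mir-493 (6 and 4 counts against 0 in BM), mir-409 (2 and 4 against 2), mir-412 (3 and 3 against 0) and mir-494 (3 and 2 against 2), and the lower one was mir-434 (0 and 0 against 14). The count fell from 5 to 3 without FFSS-Myo-EV replicate 1 and to 1 without replicate 2. Both vesicle comparisons share the BM library.

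Shear stress was compared over the 4 vesicle libraries. Of the 44 members, 0 reached the mean normalized value of 10 that the rule asked for, and none was therefore tested in the fit, in which 108 of 354 entries (30.5%) were called by edgeR's quasi-likelihood test after Benjamini-Hochberg adjustment. The 44 members had 117 reads in the 4 vesicle libraries together.

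**Figure D4:**
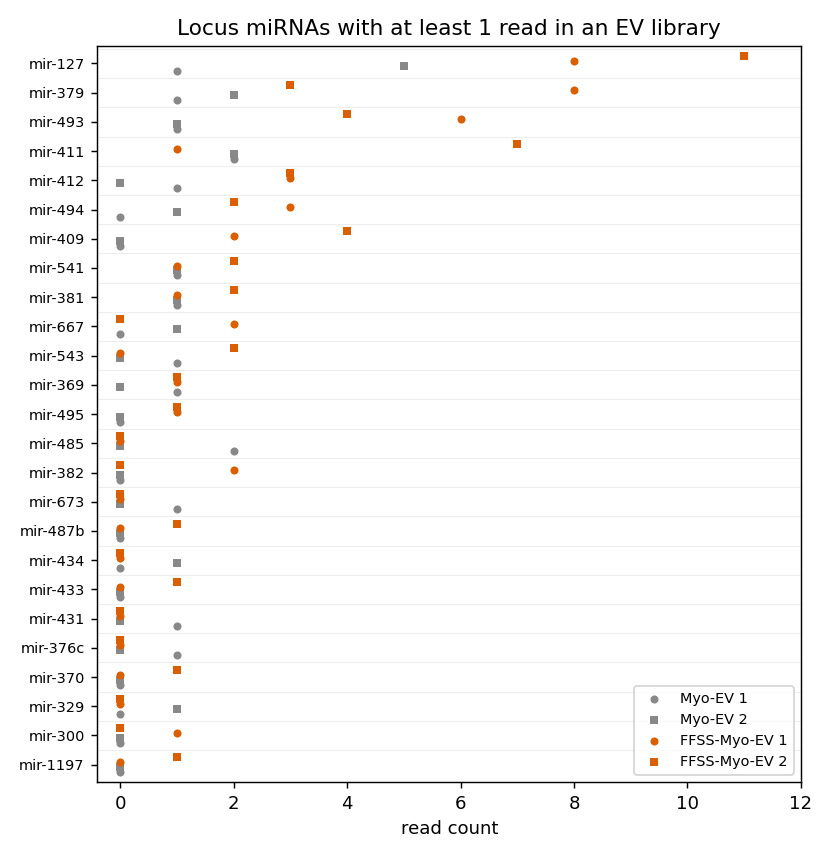
Read count of the 25 members with at least 1 read in a vesicle library, ordered by their total. Grey symbols are the 2 Myo-EV libraries and orange symbols the 2 FFSS-Myo-EV libraries, with circles for replicate 1 and squares for replicate 2. The highest value is 11 counts (mir-127), and most points lie at 0 to 2 counts.

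The 25 members with a vesicle read had higher means in FFSS-Myo-EVs in 19 cases and lower means in 6. The share of all entries with a higher mean was not computed, so these counts are not a result particular to the members. The same holds for the sums that follow, since no sum over all other low entries was computed. The summed normalized values of all members were 15.0 and 19.2 for Myo-EVs against 40.0 and 50.8 for FFSS-Myo-EVs. The groups did not overlap, with 17.1 ± 2.97 (SD, n = 2) against 45.4 ± 7.64 (SD, n = 2), a ratio of 2.65, or 2.60 without mir-127. The counting intervals of the shares, given above, were apart for Myo-EV replicate 1 and both FFSS-Myo-EV libraries, whereas those of Myo-EV replicate 2 and FFSS-Myo-EV replicate 1 overlapped.

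By name, mir-127 had 1 and 5 counts without shear stress and 8 and 11 with it. mir-379 had 1 and 2 counts against 8 and 3, and mir-493 had 1 and 1 against 6 and 4. mir-411 had 2 and 2 counts against 1 and 7, so that its groups overlapped. In normalized value, the shear stress libraries were both above the 2 others for 7 members (mir-127, mir-379, mir-409, mir-412, mir-493, mir-494 and mir-495) and below for 0. Among all entries with 1 to 25 counts over the vesicle libraries, 19.4% were above and 9.69% were below in this way, and of all entries with a vesicle read 27.1% were above.

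When every entry with a vesicle read was tested without the filter, 0 of 25 members were called by the edgeR quasi-likelihood test with Benjamini-Hochberg adjustment, against 11.9% of 893 entries. The lowest p-values were those of mir-409 (log2 fold change 4.54, unadjusted p = 0.0436, adjusted p = 0.229) and mir-127 (1.39, unadjusted p = 0.0441, adjusted p = 0.229), and these were the 2 members at an unadjusted p below 0.05. The fold change of mir-409, which had 0 counts in both Myo-EV libraries, depends on the prior count of the fit. DESeq2 called 0 members, with 0 at an unadjusted p below 0.05, and limma called 0, with 4. Without Myo-EV replicate 2, mir-127 was called (log2 fold change 3.03, adjusted p = 0.0262), where the lone Myo-EV library is assumed to vary like the FFSS-Myo-EV libraries. A change under shear stress was not detectable for single members at this depth.

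Some other low entries were higher in FFSS-Myo-EVs as well, and others were lower. The 4 blood cell entries summed above, without those of mir-142 and mir-486, came to 11.0 and 9.6 in the Myo-EV pair. In the FFSS-Myo-EV pair they came to 43.9 and 34.3. All 4 were detected in both FFSS-Myo-EV libraries and in Myo-EV replicate 1, and 2 of them in Myo-EV replicate 2. Their defining member mir-451a, a red cell miRNA, had 3.0 and 4.8 against 25.9 and 17.7, and mir-223, a myeloid miRNA, had 1.0 and 0 against 7.0 and 5.5. The groups overlapped for mir-150, a lymphocyte miRNA (3.0 and 4.8 against 7.0 and 3.3), and for mir-144, the red cell neighbour of mir-451a (4.0 and 0 against 4.0 and 7.8). mir-122, a liver miRNA found in serum, had 6.0 and 4.8 against 17.9 and 15.5. In the muscle list, mir-133b (45.2 and 35.9 against 13.9 and 12.2), mir-133a-1 (19.1 and 19.2 against 10.0 and 4.4) and mir-133a-2 (17.1 and 20.4 against 6.0 and 4.4) were lower in FFSS-Myo-EVs. The low entry mir-1a-2 was lower as well (3.0 and 6.0 against 2.0 and 0), and mir-499 overlapped (3.0 and 1.2 against 4.0 and 0). The abundant mir-206 was higher (1968.5 and 2365.4 against 2610.0 and 2604.9). With it, the sum of the 8 muscle entries was 2055.9 and 2448.1 against 2645.9 and 2625.9. The part of these entries in the difference of the members was not tested.

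The vesicle reads of the members followed the OB levels in part. The 10 members highest in OB had 71 of the 117 vesicle reads, and 9 of these 10 were detected, against 16 of the other 34. The libraries carried single-index primers, and whether reads passed between libraries was not tested. The ratios to OB were unequal. mir-412, the member with the highest ratio of vesicles to OB, had 1.0 and 0 in Myo-EVs, 3.0 and 3.3 in FFSS-Myo-EVs and 0 in BM. It had 7 vesicle reads against 229 in OB, which put OB at 67.5 times the vesicle mean (interval 32.3 to 169.9). Among the 43 members that passed the filter on the mean over 6 libraries, mir-493 and mir-667 came next by observed reads. mir-493 had 0 in BM, 1.0 and 1.2 in the Myo-EV pair and 6.0 and 4.4 in the FFSS-Myo-EV pair, with 12 vesicle reads against 2213 in OB, at 380.7 times (217.5 to 737.9). mir-667 had 0 in BM, 0 and 1.2 in the Myo-EV pair and 2.0 and 0 in the FFSS-Myo-EV pair, with 3 vesicle reads against 621 in OB, at 427.3 times (145.5 to 2078). mir-1197, which did not pass, would rank between mir-412 and mir-493. It had 1.1 in FFSS-Myo-EV replicate 2 and 0 in BM and the other vesicle libraries, and this 1 read against 74 in OB put OB at 152.8 times the vesicle mean, with an interval from 26.6 to 6114. The interval of mir-412 did not overlap that of mir-127, given above. The mature sequences of mir-412 and mir-493, the entries with the highest observed ratios among those that passed, are shown with the seed in capitals.
miR-412-5p: uGGUCGACcagcuggaaaguaau
miR-412-3p: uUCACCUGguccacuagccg
miR-493-5p: uUGUACAUgguaggcuuuc
miR-493-3p: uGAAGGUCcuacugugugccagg
After mir-667 came mir-673, with 0.8 in BM, 1.0 in Myo-EV replicate 1 and 0 in the other vesicle libraries. Close behind was mir-487b, with 1.1 in FFSS-Myo-EV replicate 2 and 0 in BM and the other vesicle libraries. These single vesicle reads stood against 381 and 387 reads in OB. By observed reads, the lowest ratios were tied at 0, in the 19 members without a vesicle read. Since a count of 0 allows up to 3 counts, the place of these members in the order is not known. For mir-758, for example, OB was at least 123.9-fold above the vesicle floor, a bound between the values of mir-412 and mir-493.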

How the data were processed

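Small RNA libraries of 6 samples had been prepared with a NEBNext small RNA kit and single-index primers. The authors grouped the reads in CLC Genomics Workbench and matched them to miRBase, and the deposited table holds whole-number counts per precursor entry. It also holds normalized expression values, a scaled signal computed by the authors from those counts. Tested on the file, each normalized value was the count times 1 constant per library, from 0.397 to 1.20. The processing notes name build mm10. The miRBase release and mismatches allowed are not given in the sources used here.

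The member list and the other lists were chosen with earlier results of these data known. Ratios were taken between normalized values, with a group whose libraries summed to 3 counts or fewer set to 3 counts over the group for calls of 2-fold. Ratio intervals are exact conditional binomial intervals and shares have Clopper-Pearson intervals, both at 95%. Vesicle groups were compared with the quasi-likelihood test of edgeR 4.0.16 in R 4.3.3, with TMM factors and an adjusted p threshold of 0.05, over the 354 entries with a mean of at least 10. DESeq2 1.42.0 and limma 3.58.1 (log2 of the value plus a pseudocount of 1) were alternatives. The edgeR script was tested on simulated data. Values in every library are given for the 10 highest members, for members called or with extreme fold changes under shear stress, and for the 5 highest ratios of vesicles to OB among members with a mean of at least 10 over the 6 libraries. No member was called or tested under shear stress. The 5 lowest ratios could not be picked because 19 members were tied at 0 vesicle reads, and these are given by count and range. Library totals were 5181296 counts (OB), 6092460 (BM), 2871364 and 2414132 (Myo-EV replicates 1 and 2), and 3029524 and 2656119 (FFSS-Myo-EV replicates 1 and 2). Positions and sequences came from RefSeq and GENCODE M21. Tables and intervals were made in Python 3.11.15 (pandas 2.3.3, scipy 1.17.1).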

Additional observations from a re-analysis of the deposited data

How the results depend on the processing

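Of 56 alternatives, 45 left the result within its limits, 11 moved it and 0 reversed it. The 45 include the 11 under shear stress with a filter on low values. No member could be tested in those, so their result of 0 was fixed in advance and carries no information. All 44 members stayed past the fold in each OB comparison under the 13 alternatives run there. With 4-fold in place of 2-fold, 0 members differed between Myo-EVs and BM and 1 between FFSS-Myo-EVs and BM, and leaving out 1 vesicle library gave 0 to 1 and 1 to 3. Without mir-127, the members' share of counts was 5.85% in OB and 0.00102% in BM, and with mir-21a left out of the total it was 10.7% and 0.00253%. Under shear stress, 0 members could be tested in any of the 11 alternatives with a filter on low values, and the planned fit without one called 0 of 25. A further 9 alternatives without a filter were chosen after seeing the data. Leaving out 1 vesicle library gave 0 to 1 calls among members, the 1 without Myo-EV replicate 2, and every other one gave 0.

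With the replicate number as a block, 0 members were called without the filter, and 0 could be tested with it (replicate block). No label or method says that equal numbers share an origin. The deviations of same-numbered libraries correlated at r = 0.209 over 354 entries, and with only 2 pairs this is not taken as pairing. A median log2 fold change over the tested members could not be given, since no member was tested. Counts of 0 to 11 limit every statement on the members in the vesicles.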
